A study of Mus musculus with 16 samples.

Results

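The transglutaminases are enzymes that join proteins by bonds between glutamine and lysine side chains. The genes described here are Tgm1, Tgm2, Tgm3 and Tgm5, 4 of the 18194 genes that the arrays read with a probe set of their own. They were chosen by their measured differences between SmoM2 and control epidermis in these arrays, in which Tgm2, Tgm3 and Tgm5 went different ways. Those differences are therefore given as a description, with no test. All 4 genes are read from log2 array signals, and their 10 probe sets were all examined, of which 9 passed the filter on dim signal (2 or more of the 16 arrays above their own 40th percentile).

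Cells were sorted by flow cytometry from tail skin of mice of mixed strain background, whose ages are not given. SmoM2 is an activated form of Smoothened, the membrane protein that passes on the hedgehog signal, and it is used to model basal cell carcinoma. Basal cells of the interfollicular epidermis (IFE) came from mice that join K14CREER and Rosa-SmoM2-YFP with b-cat flox/flox alleles, taken 4 weeks after tamoxifen (n = 2), in which floxed β-catenin is to be deleted in the cells that gain SmoM2. They also came from K14CREER/Rosa-SmoM2-YFP mice that were untreated (n = 3) or had received tamoxifen. These gave 1 array at 3 days, 3 arrays at 1 week, 3 at 4 weeks and 2 at 10 weeks. Every IFE mouse, controls included, carries the keratin 14 driven, tamoxifen-dependent Cre and the SmoM2-YFP allele, so SmoM2 cannot be told apart from tamoxifen, time since it, or sorting of SmoM2-positive cells. Loss of β-catenin was not measured without SmoM2. Cells of the hair follicle bulge and outer root sheath came from K19CREERT2/Rosa-SmoM2-YFP mice at 4 weeks (n = 1) and without treatment (n = 1). The source label of the untreated bulge array names SmoM2-positive cells, but its title calls it a control, and it is treated as one here. Whether replicates came from separate mice is not in the labels, and p-values then measure only the spread between these arrays, which may be technical.

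The sorted populations carried their labelled identity in part. Krt5 and Krt14, keratins of basal keratinocytes, had signals of 12.83 to 14.23 in all 16 arrays. Krt10, a keratin of differentiating cells, had 12.59 to 14.07 in the IFE arrays, so cells or RNA of differentiating keratinocytes were present in a sort for basal cells. Cd34, a bulge marker, had 6.83 in bulge SmoM2 cells and 9.72 in bulge control cells, against 3.65 to 5.63 in the IFE arrays. The mean of 8 bulge and outer root sheath markers, Cd34 among them, was 10.32 and 10.57, against 8.13 to 8.56 in IFE controls. Not all of them followed it. Nfatc1 had 6.19 in bulge control cells against 7.91 to 9.05 in IFE controls, and Postn 11.30 against 12.13 to 12.68. Gli1, a hedgehog target gene, had 7.22 and 9.56 with β-catenin loss, 5.30 to 5.73 in IFE controls, 7.28 at 3 days, and 8.50 to 10.83 from 1 week onward in SmoM2 cells, while bulge SmoM2 cells had 9.96 and bulge control cells 9.89. Ctnnb1, the gene that encodes β-catenin, had 12.76 and 12.93 with β-catenin loss, 13.21 to 13.65 with SmoM2 alone at 4 weeks and 12.76 to 13.04 in controls. Where its probes lie relative to the deleted exons is not given in the sources used here, so the deletion is unchecked by them. Replicate 3 of the 1-week group fell among the controls on the first principal component of the IFE arrays, at −30.64 against −37.66 to −28.9, with replicates 1 and 2 at −1.55 and 36.93. The 2 arrays of the 10-week group differed least from each other, by a median of 0.118 over genes in absolute value, against 0.279 to 0.484 in the other groups. Y-linked genes had a mean signal of 3.39 to 6.91 with β-catenin loss, 6.02 to 8.41 with SmoM2 alone at 4 weeks, 8.10 to 8.15 at 10 weeks and 3.41 to 8.18 in controls, so sex was not balanced between groups.

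Cross-linking by transglutaminases builds the cornified envelope, a layer of joined proteins under the membrane of dying keratinocytes. Tgm1 is anchored to the membrane of differentiating keratinocytes, Tgm3 is a soluble enzyme of the upper epidermis and the hair follicle that is activated by cleavage, and Tgm5 is a further enzyme of the upper epidermis. In humans, loss of TGM1 causes lamellar ichthyosis and loss of TGM5 causes acral peeling skin. Tgm2, or tissue transglutaminase, is found in many cell types, is induced by retinoids in many of them, also binds GTP, and acts on matrix proteins such as fibronectin outside the cell.

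Tgm2, Tgm3 and Tgm5 all lie on mouse chromosome 2, where Tgm5 stands between its family members Epb42 and Tgm7 in the order of RefSeq coding genes (GRCm38.p6), and Tgm1 lies on chromosome 14 between Tinf2 and Rabggta. Promoter sequences are shown for Tgm3 and Tgm5, the members with the largest differences from control in each direction at 4 weeks. Each is the stretch of 250 bases before a gene start in RefSeq (GRCm38.p6), written 5′ to 3′ on the strand of the gene, with capitals marking a match to one of the motifs searched. The Tgm3 stretch is chr2:130012090-130012339 on the plus strand and the Tgm5 stretch is chr2:121085842-121086091 on the minus strand. The Tgm3 stretch lies inside the span of the gene in RefSeq, which begins at 129987794. The bases before that farther start were not searched.
Tgm3: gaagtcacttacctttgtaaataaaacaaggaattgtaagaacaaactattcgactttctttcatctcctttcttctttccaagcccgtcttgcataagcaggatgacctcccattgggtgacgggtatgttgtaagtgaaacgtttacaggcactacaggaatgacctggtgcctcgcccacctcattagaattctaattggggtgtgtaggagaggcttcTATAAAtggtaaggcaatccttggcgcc
Tgm5: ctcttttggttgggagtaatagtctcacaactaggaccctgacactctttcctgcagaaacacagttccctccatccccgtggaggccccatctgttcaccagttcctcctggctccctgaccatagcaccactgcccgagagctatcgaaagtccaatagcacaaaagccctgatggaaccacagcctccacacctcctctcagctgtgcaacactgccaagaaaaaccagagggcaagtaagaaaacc
The motifs were TATAAA on the strand of the gene, and, on both strands, GACCACCCA of Gli factors, TGANTCA of AP-1 and CTTTGAT of Tcf/Lef factors, none of which overlap each other in the printed stretches. The Tgm3 stretch held TATAAA, 28 bases before the start, which 7.59% of 32851 such stretches hold. The Tgm5 stretch held none of the 4. The Gli letters were found in 0.225% of all stretches, the AP-1 letters in 6.75% and the Tcf/Lef letters in 3.21%, and a stretch without a match says only that these letters are not in it. Of the 2 stretches listed for Tgm1, 1 held CTTTGAT, 208 bases before its start.

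Tgm1 had similar signals in most IFE groups. Its signals (log2) with β-catenin loss at 4 weeks were 6.08 and 5.03. In the series of SmoM2 alone they were 5.92, 6.58 and 6.23 in controls, 7.24 at 3 days, 6.02, 6.17 and 6.56 at 1 week, 4.73, 5.78 and 7.47 at 4 weeks and 6.64 and 6.09 at 10 weeks. Every replicated IFE group overlapped the controls, and the lone 3-day array lay above them. The 4-week group held both the lowest signal of all 16 arrays, in replicate 1 and below the 40th percentile of that array, and the highest, with an SD of 1.38 against 0.28 to 0.74 in the other replicated IFE groups. Against control, Tgm1 differed by 1.00 ± 0.78 (log2 difference ± SE) at 3 days, 0.01 ± 0.55 at 1 week, −0.25 ± 0.55 at 4 weeks and 0.12 ± 0.61 at 10 weeks.

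The 4-week spread of Tgm1 ran with that of differentiation markers. The mean of 9 suprabasal keratinocyte markers, all of which passed the filter and most of which are envelope proteins described further on, was 9.07, 9.76 and 10.73 in the same 3 arrays, in the order of Tgm1. It was 9.81 to 10.13 with β-catenin loss, 10.46 to 10.66 in controls, 10.99 at 3 days, 10.32 to 10.78 at 1 week and 10.14 to 10.49 at 10 weeks. Over the 14 IFE arrays, which share group and replicate structure, Pearson's r with this mean was 0.80 for Tgm1, 0.75 for Tgm3, 0.40 for Tgm2 and −0.39 for Tgm5. The part of these markers in the results was not tested. In RNA of sorted cells, fewer cells of a type and less RNA per cell cannot be told apart.

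Within IFE, Tgm3 had its highest mean signal in untreated cells and its lowest at 4 weeks. Its signals with β-catenin loss at 4 weeks were 8.17 and 9.02. In the series of SmoM2 alone they were 10.11, 10.85 and 10.96 in controls, 10.37 at 3 days, 9.57, 8.29 and 9.93 at 1 week, 6.47, 7.24 and 8.11 at 4 weeks and 8.42 and 9.21 at 10 weeks. From 1 week onward every array with SmoM2 alone lay below every control array, and both arrays at 10 weeks lay above the 3 at 4 weeks. The differences from control were −0.28 ± 0.70 at 3 days, −1.38 ± 0.50 at 1 week, −3.37 ± 0.50 at 4 weeks and −1.83 ± 0.55 at 10 weeks, and that at 4 weeks is 10.3-fold lower on the linear scale. Within replicate numbers, the 4-week difference was −3.65, −3.61 and −2.85. The second Tgm3 probe set, 1421355_at, ran with the first over the IFE arrays (r = 0.86) and gave −0.93 at 1 week, −2.42 at 4 weeks and −1.82 at 10 weeks. Its signals were 9.02, 7.85 and 8.26 in controls, 8.55, 6.24 and 7.54 at 1 week, 5.91, 5.91 and 6.04 at 4 weeks and 6.24 and 6.87 at 10 weeks. By this probe set the 1-week arrays overlapped the controls, while those at 4 and 10 weeks lay below them.

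As a list mean, markers of hair-type differentiation overlapped controls at 1 and 4 weeks, and lay below them with β-catenin loss and at 10 weeks. The mean of 14 hair shaft and inner root sheath markers, all of which passed the filter, was 5.52 to 5.76 with β-catenin loss, and 6.88 to 7.66 in controls, 7.54 at 3 days, 6.83 to 7.24 at 1 week, 5.78 to 7.08 at 4 weeks and 5.79 to 6.15 at 10 weeks. At 4 weeks against control 2 of the 14 passed the test (3.24% of all genes). Of the 14 differences 3 were positive and 11 negative, with a median of −0.15 (all genes −0.05). Those that passed were Krt84 and Krt36, hair-type keratins that are also made in the scales of tail skin. Krt84 averaged 8.42 at 4 weeks and 12.58 in controls, a difference of −4.16 (limma, adjusted p = 0.02, and 0.00677 to 0.0906 over alternatives). Krt36 averaged 8.90 and 13.05 (−4.16, adjusted p = 0.0308, and 0.00946 to 0.106 over alternatives). Both calls were lost without any 1 of the 3 controls or without 4-week replicate 1, and that of Krt36 also without 4-week replicate 2. Melanocyte markers (8 of 8 passed the filter) averaged 5.54 to 5.55 with β-catenin loss, and 7.09 to 9.14 in controls, 6.29 to 7.61 at 4 weeks and 5.72 to 6.52 at 10 weeks. Over the 14 IFE arrays Pearson's r of Tgm3 was 0.54 with the hair shaft mean and 0.61 with the melanocyte mean. With the mean of basal keratinocyte markers it was 0.71, and with that of bulge and outer root sheath markers −0.72. The hair shaft mean is not particular to Tgm3, since Tgm2 had an r of 0.70 with it. The part of these markers in the Tgm3 differences was not tested.

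Tgm5 was higher, where Tgm3 was lower, than in controls from 1 week onward. Its signals with β-catenin loss at 4 weeks were 6.11 and 7.04. In the series of SmoM2 alone they were 5.86, 5.76 and 5.60 in controls, 5.90 at 3 days, 9.19, 9.50 and 6.09 at 1 week, 10.05, 9.42 and 9.35 at 4 weeks and 10.08 and 10.06 at 10 weeks. The 3-day array lay just above the highest control. At 1 week the arrays were split, with replicates 1 and 2 near the 4-week level and replicate 3 near the controls, as that array also was on the first principal component. The differences from control were 0.16 ± 0.97 at 3 days, 2.52 ± 0.69 at 1 week, 3.87 ± 0.69 at 4 weeks and 4.33 ± 0.77 at 10 weeks. Without replicate 3 the 1-week difference was 3.60, and within replicate numbers it was 3.33, 3.73 and 0.49. The 4-week difference was steadier, at 4.19, 3.66 and 3.75 within numbers, and is 14.6-fold on the linear scale. Tgm5, like Tgm1, is read by 1 probe set only, so its differences have no reading by another.

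Tgm2 was lower at each later time. Its signals with β-catenin loss at 4 weeks were 6.68 and 6.32. In the series of SmoM2 alone they were 8.93, 7.41 and 8.07 in controls, 7.45 at 3 days, 6.32, 5.81 and 7.04 at 1 week, 6.11, 4.80 and 6.15 at 4 weeks and 4.90 and 4.86 at 10 weeks. From 1 week onward every array with SmoM2 alone lay below every control array, and replicate 2 at 4 weeks and both arrays at 10 weeks lay below the 40th percentile of their arrays, where signals of dim probe sets lie. The differences from control were −0.69 ± 0.63 at 3 days, −1.75 ± 0.45 at 1 week, −2.45 ± 0.45 at 4 weeks and −3.26 ± 0.50 at 10 weeks. Within replicate numbers, the 4-week difference was −2.82, −2.62 and −1.92.

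For scale, 463 of 14286 genes tested (3.24%) passed an adjusted p of 0.05 with limma at 4 weeks against control, and 873 did with the replicate number as a block. Without single arrays the 4-week count ran from 13 to 410. At 10 weeks 100 genes passed (0.7%), and 0 to 45 without single arrays. None passed at 1 week or at 3 days (0% each), where 677 (4.74%) and 222 (1.55%) had an unadjusted p under 0.05, and with the block 2 passed at 1 week. Tgm2, Tgm3 and Tgm5, or 3 of the 4 members, had no overlap with control at 1, 4 and 10 weeks, where 7.48%, 17.3% and 37.3% of all genes had none. Since these comparisons chose the members, nothing is read from that count.

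**Figure D1:**
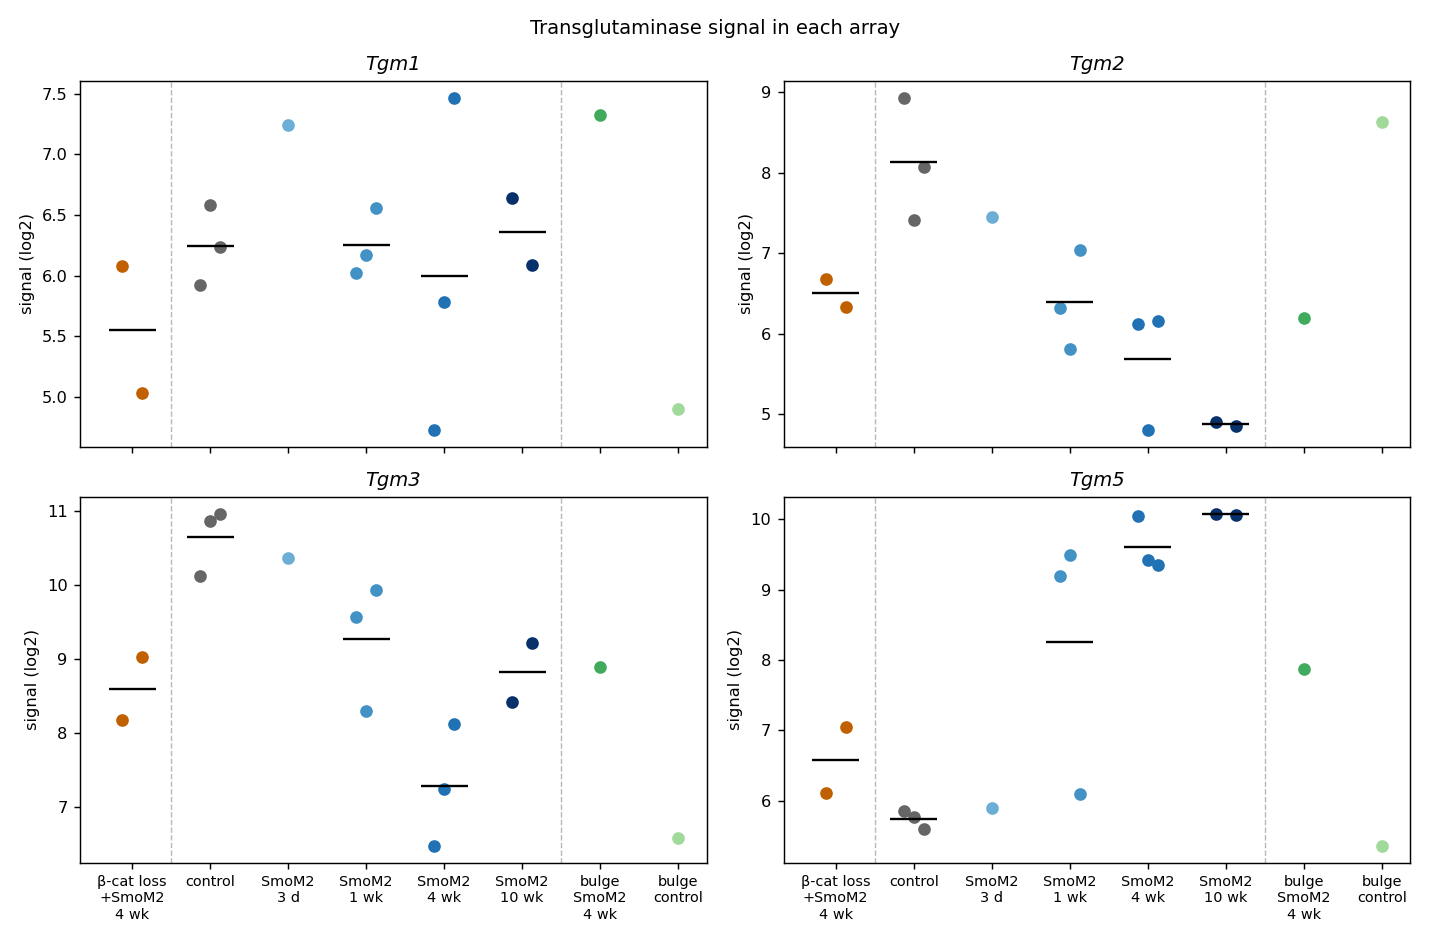
Log2 signal of Tgm1, Tgm2, Tgm3 and Tgm5 (y axis, own scale in each panel) in each array of the 8 groups (x axis), with points for arrays and bars for group means. In IFE with SmoM2 alone, Tgm5 reaches 9.35 or more in all arrays at 4 and 10 weeks, while β-catenin loss arrays lie at 6.11 and 7.04. Tgm2 and Tgm3 lie lower in IFE arrays with SmoM2 alone from 1 week onward than in IFE controls. Tgm1 spreads from 4.73 to 7.47 at 4 weeks in IFE with SmoM2 alone.

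The 6 Tgm2 probe sets differed in their patterns. The one used above, 1433428_x_at, has the highest mean, and 1437277_x_at and 1455900_x_at ran with it almost exactly (r = 0.99 each). They differed from control by −2.36 and −2.15 at 4 weeks and by −2.97 and −2.69 at 10 weeks. The probe set 1417500_a_at had r = 0.91 and differed by −1.62 at 4 weeks and −1.78 at 10 weeks. A further probe set, 1426004_a_at, had r = 0.58 and differed by −0.52 and −0.54. The last, 1438942_x_at, lay at 3.33 to 3.83 in all arrays, above the 40th percentile in 0 of 16, and differed by −0.17 at 4 weeks and by 0.004 at 10 weeks. Which transcripts each probe set reads was not tested.

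**Figure D2:**
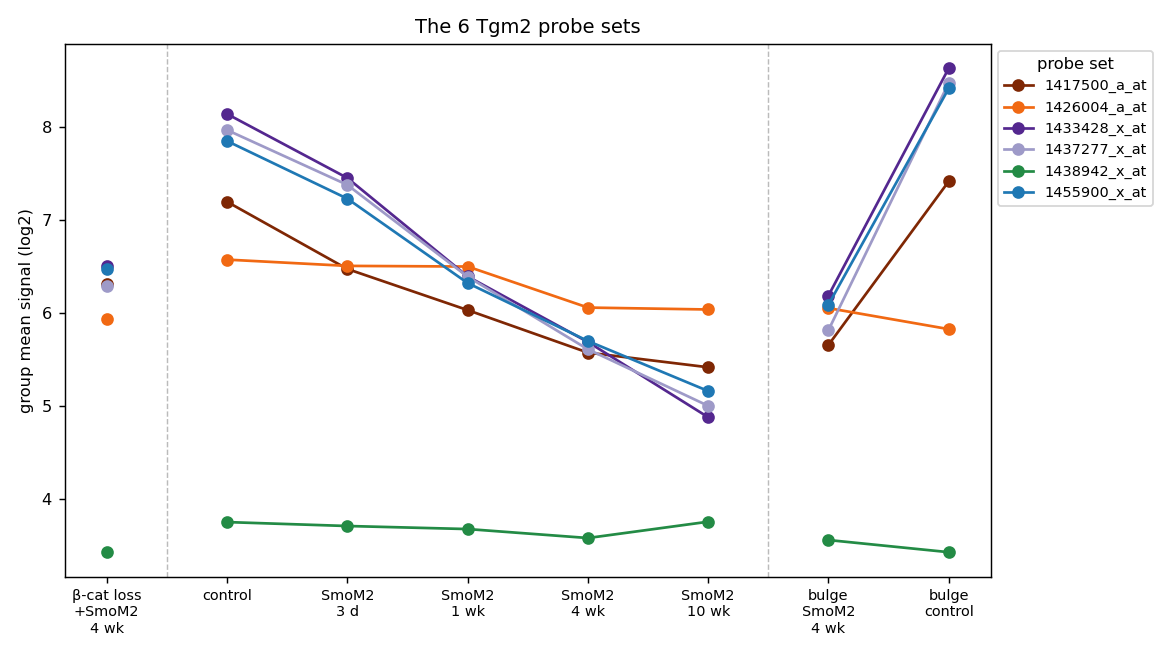
Mean log2 signal (y axis) of each of the 6 Tgm2 probe sets (colours) in the 8 groups (x axis), where groups of 1 array show that array. The lines of 4 probe sets are highest in the bulge control and lowest at 10 weeks. Of the others, 1426004_a_at stays between 5.83 and 6.57, and 1438942_x_at stays between 3.42 and 3.76.

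Across the 8 groups, the order of mean levels differed between the genes. For Tgm5 it was 10 weeks (10.07), 4 weeks (9.61), 1 week (8.26), bulge SmoM2 (7.87), β-catenin loss (6.58), 3 days (5.90), control (5.74) and bulge control (5.36), and the ranges of 4 weeks, 1 week and bulge SmoM2 overlapped in that order while the other neighbours did not. For Tgm3 it was control (10.64), 3 days (10.37), 1 week (9.26), bulge SmoM2 (8.89), 10 weeks (8.82), β-catenin loss (8.59), 4 weeks (7.27) and bulge control (6.58). Only 3 days and 1 week, and β-catenin loss and 4 weeks, were neighbours without overlap. For Tgm2 it was bulge control (8.63), control (8.14), 3 days (7.45), β-catenin loss (6.50), 1 week (6.39), bulge SmoM2 (6.19), 4 weeks (5.69) and 10 weeks (4.88), with no overlap only between 3 days and β-catenin loss and between bulge SmoM2 and 4 weeks. The order for Tgm1 ran from bulge SmoM2 (7.33) and 3 days (7.24), single arrays, through 5 IFE groups whose ranges overlapped (6.36 to 5.55) to bulge control (4.90).

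The β-catenin loss arrays took no part in choosing the members, but each comparison with them uses 4-week SmoM2 or control arrays that did. Their p-values are therefore not independent of the choice. Loss of β-catenin in SmoM2 cells asks how far the SmoM2 pattern goes with β-catenin. Gli1, the hedgehog target, was lower in these arrays, at 7.22 and 9.56 against 9.95 to 10.83 with SmoM2 alone at 4 weeks. Its part in the differences below was not tested. Tgm5 had 6.11 and 7.04 with β-catenin loss, against 10.05, 9.42 and 9.35 with SmoM2 alone at 4 weeks. Both β-catenin loss arrays lay below all 3 arrays with SmoM2 alone. The difference of −3.03 ± 0.77 (95% interval −4.71 to −1.35) is 8.17-fold, and it missed the threshold after adjustment over all genes (limma, adjusted p = 0.0637, unadjusted p = 0.00206).

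Tgm3 had 8.17 and 9.02 with β-catenin loss, against 6.47, 7.24 and 8.11 with SmoM2 alone. The difference of 1.32 ± 0.55 (0.11 to 2.53) did not pass (limma, adjusted p = 0.248), and it was 0.48 by the second probe set. Both β-catenin loss arrays lay above all 3 others. Tgm2 had 6.68 and 6.32, against 6.11, 4.80 and 6.15. Its difference of 0.82 ± 0.50 (−0.28 to 1.91) did not pass either (adjusted p = 0.451), and it was 0.37 without 4-week replicate 2. For Tgm1 the difference was −0.44 ± 0.61 (adjusted p = 0.768) with overlapping arrays, and it became 0.30 without replicate 3 of SmoM2 alone and 0.09 without replicate 2 of β-catenin loss.

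None of the 4 genes thus passed in this comparison, in which 318 of 14286 genes did (2.23%), or 2 to 247 without single arrays. Tgm3 and Tgm5 had an unadjusted p under 0.05, as did 17.2% of all genes. The arrays did not overlap for 3 of the 4 (28.6% of all genes). The median difference over all genes was −0.09. The mean of 8 bulge and outer root sheath markers, all of which passed the filter, was 8.66 and 9.38 with β-catenin loss, against 9.50 to 10.29 with SmoM2 alone at 4 weeks and 8.13 to 8.56 in controls. Over the 14 IFE arrays Pearson's r with this mean was 0.87 for Tgm5 and −0.88 for Tgm2, and the part of these markers in the result was not tested. Dermal fibroblast markers (9 of 9 passed the filter) averaged 5.24 to 5.995 with β-catenin loss, 6.38 to 7.01 with SmoM2 alone and 6.18 to 6.61 in controls, and sebaceous gland markers (7 of 7) 10.04 to 10.58, 7.88 to 9.59 and 9.35 to 10.09 in the same groups.

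The means of Tgm2, Tgm3 and Tgm5 with β-catenin loss lay between those of SmoM2 alone at 4 weeks and control. This holds for the probe set of highest mean, and both other groups took part in choosing the members, so nothing is read from it. By Tgm2 probe set 1426004_a_at the mean was 5.94, below 6.06 with SmoM2 alone and 6.57 in controls. By the dim 1438942_x_at it was 3.42, below 3.58 and 3.75. Against untreated controls, Tgm3 differed by −2.05 ± 0.55 (−3.26 to −0.84, limma adjusted p = 0.13) and Tgm2 by −1.64 ± 0.50 (−2.73 to −0.54, adjusted p = 0.165). Both β-catenin loss arrays lay below all 3 controls in each case. By the other Tgm2 probe sets the difference was −1.68 (1437277_x_at), −1.37 (1455900_x_at), −0.89 (1417500_a_at), −0.64 (1426004_a_at) and −0.33 (1438942_x_at), and by the second Tgm3 probe set −1.94. Tgm5 differed by 0.84 ± 0.77 (−0.84 to 2.52, adjusted p = 0.628), with both arrays above all controls, and by 0.37 and 1.303 without replicate 2 and replicate 1 of β-catenin loss. Tgm1 differed by −0.69 ± 0.61 (adjusted p = 0.615) with overlap, and by −0.17 and −1.22 without the same replicates. None passed, and 53 of 14286 genes did (0.371%). Arrays without overlap were found for 3 of the 4 genes and for 33.6% of all genes. The median over all genes was −0.12, so that relative to it the negative differences are smaller by that amount and the positive one of Tgm5 is larger.

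The times of SmoM2 were set against each other with arrays whose differences from control chose the members, so these differences too are a description, with no test. Tgm3 had 6.47, 7.24 and 8.11 at 4 weeks, against 9.57, 8.29 and 9.93 at 1 week. All its 4-week arrays lay below its 1-week arrays, unlike in the other members, as for 2.11% of all genes, counting this direction only. Its difference was −1.99 ± 0.50 (−3.08 to −0.91), or −1.49 by the second probe set, in a comparison where no gene passed with limma (0% of 14286, and 688 or 4.82% at an unadjusted p under 0.05). Within replicate numbers it was −3.10, −1.05 and −1.82. Tgm5 differed by 1.35 ± 0.69 (−0.15 to 2.85), with 0.85, −0.08 and 3.26 within numbers, and by 0.26 without 1-week replicate 3. Tgm2 differed by −0.70 ± 0.45 (−0.995 to −0.26 without single replicates). Tgm1 differed by −0.26 ± 0.55, and by 0.38 without replicate 1 of the 4-week group.

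At 10 weeks against 4 weeks of SmoM2, the Tgm3 difference was positive. Tgm3 had 8.42 and 9.21 at 10 weeks, against 6.47, 7.24 and 8.11 at 4 weeks. The difference was 1.54 ± 0.55 (0.33 to 2.75), or 0.60 by the second probe set. Tgm5 differed by 0.46 ± 0.77, Tgm2 by −0.81 ± 0.50 (−1.25 to −0.58 without single replicates) and Tgm1 by 0.37 ± 0.61, the last becoming −0.26 without replicate 1 at 4 weeks. No gene passed with limma (0% of 14286, and 893 or 6.25% at an unadjusted p under 0.05). Arrays did not overlap for Tgm3 and Tgm5, or 2 of 4 genes, and for 26.6% of all genes.

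**Figure D3:**
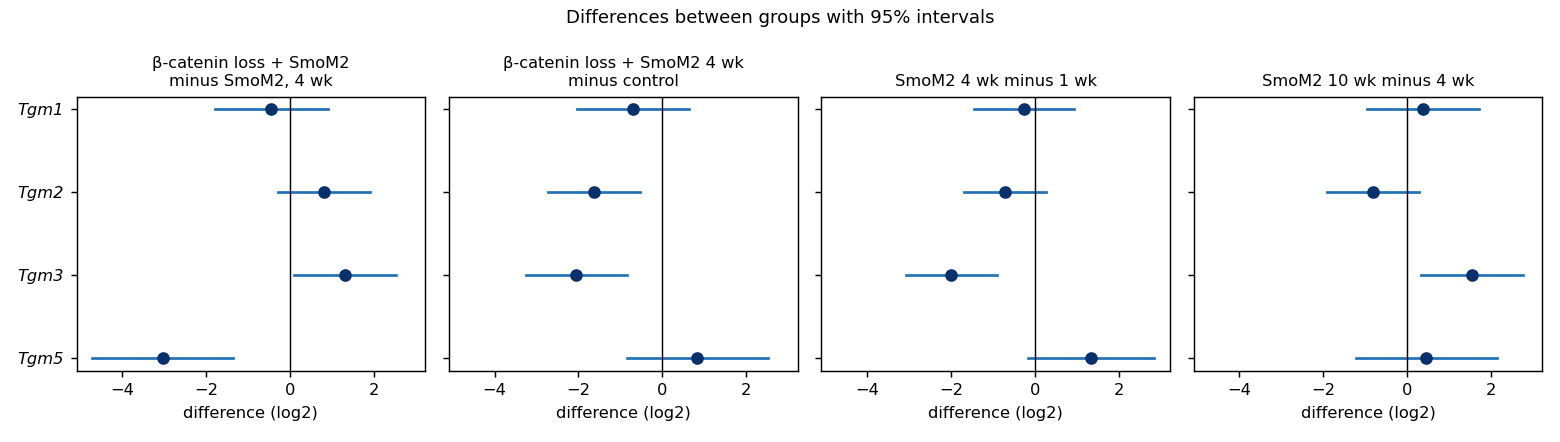
Differences in log2 signal (x axis) of the 4 genes (y axis) in 4 comparisons, each of which shares arrays with those that chose them, with points for limma estimates, lines for their 95% intervals and a vertical line at 0. In the panels with β-catenin loss, the intervals of Tgm3 lie on 1 side of 0. So do those of Tgm5 against SmoM2 alone (−4.71 to −1.35) and of Tgm2 against control (−2.73 to −0.54). No adjusted p fell below 0.05 in these panels. The panels that compare times are a description, with no test, and nothing is read from where their intervals lie.

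In the bulge, each group had a single array, so differences carry no error. Tgm1 had 7.33 in bulge SmoM2 cells and 4.90 in bulge control cells, the second just below the 40th percentile of its array, a difference of 2.43. Tgm3 had 8.89 against 6.58 (2.31), and Tgm5 had 7.87 against 5.36 (2.51). Tgm2 was the one lower in bulge SmoM2 cells, with 6.19 against 8.63 (−2.44). All 4 differences exceed 2-fold, as do those of 6.94% of the genes (4.35% higher and 2.59% lower). Tgm5 and Tgm2 thus had the sign that they had in 4-week IFE, while Tgm3 had the opposite sign (2.31 in bulge, −3.37 in IFE). The second Tgm3 probe set gave 1.45, and the Tgm2 probe sets gave −2.66, −2.32, −1.76, 0.23 and 0.13.

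Marker lists moved in the same pair of arrays. Suprabasal markers (9 of 9 passed the filter) averaged 10.83 in bulge SmoM2 cells and 9.53 in bulge control cells, hair shaft and inner root sheath markers (14 of 14) 8.29 and 6.72, basal markers (8 of 8) 10.94 and 11.56, and bulge and outer root sheath markers (8 of 8) 10.32 and 10.57. Leukocyte and Langerhans cell markers (9 of 10) averaged 6.49 and 5.397, with 6 of 9 at least 2-fold higher and a median of 1.07, and dermal fibroblast markers (9 of 9) 7.15 and 6.57. The Y-linked mean was 3.48 and 6.35, and Gli1 was nearly level at 9.96 and 9.89. Their part in the differences was not tested.

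The remaining family members gave little signal. Of 9 family genes listed, 8 have a probe set of their own here. Tgm4, a transglutaminase of the prostate, had 4.67 to 5.30 and lay above the 40th percentile in 11 of 16 arrays. It differed by 0.36 ± 0.19 between β-catenin loss and SmoM2 alone (limma, adjusted p = 0.366), by 0.05 ± 0.17 between 4 weeks and control (adjusted p = 0.945) and by −0.10 in the bulge. Tgm6, F13a1, which encodes the A subunit of coagulation factor XIII, and Epb42, which encodes an inactive family member of the red cell membrane, lay above it in 0 of 16 arrays. Tgm7 has no probe set of its own here.

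Genes of cornified envelope proteins, the material that the epidermal enzymes join, had list medians between −0.42 and 0.48 in the IFE comparisons, with differences of both signs. Of 41 listed genes, 34 passed the filter. With β-catenin loss against SmoM2 alone, 0 of 34 passed the test, 11 differences were positive and the median was −0.42 (all genes −0.09). The lowest adjusted p-values were those of Ppl, a plakin that links the envelope to keratin filaments (10.37 against 9.37, difference 1.00 ± 0.26, adjusted p = 0.0713), and Lor, which encodes loricrin, a main component of the envelope (7.06 against 8.63, −1.57 ± 0.50, adjusted p = 0.127).

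At 4 weeks against control, 1 of 34 envelope genes passed, near the share of all genes (3.24%). It was Krt2, a keratin of upper epidermal layers. Its mean was 9.02 at 4 weeks and 12.85 in controls, a difference of −3.83 ± 0.85 (limma, adjusted p = 0.0349), and its adjusted p rose above the threshold when any control array or 4-week replicate 1 or 2 was left out (adjusted p = 0.0615 to 0.127), with array weights (0.138), without the filter (0.057) and with only the arrays compared (0.0548). The median of the 34 was −0.02, with 17 of each sign. At 10 weeks 0 of 34 passed and the median was 0.16, with Krt2 at −3.59 ± 0.95 (adjusted p = 0.12). At 3 days the median was 0.48 and at 1 week −0.16, with 0 of 34 past the test at either time, and at 3 days Lce1l, a late envelope gene, had 5.51 against 3.77 in controls (adjusted p = 1).

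In the bulge pair, 22 of 34 envelope genes were at least 2-fold higher in SmoM2 cells and 33 of 34 differences were positive. Of all genes, 4.35% were at least 2-fold higher. The median of the 34 was 1.41, against 0.01 over all genes. Rptn, which encodes repetin, had 8.07 in bulge SmoM2 cells and 3.55 in bulge control cells, and Lce1c had 9.24 and 5.22. Ivl, which encodes involucrin, an early scaffold of the envelope, was the single one below 0 (6.63 in bulge SmoM2 cells and 7.10 in bulge control cells). Tgm1 and Tgm3 were higher in the same array, and these values come from 1 array a group.

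**Figure D4:**
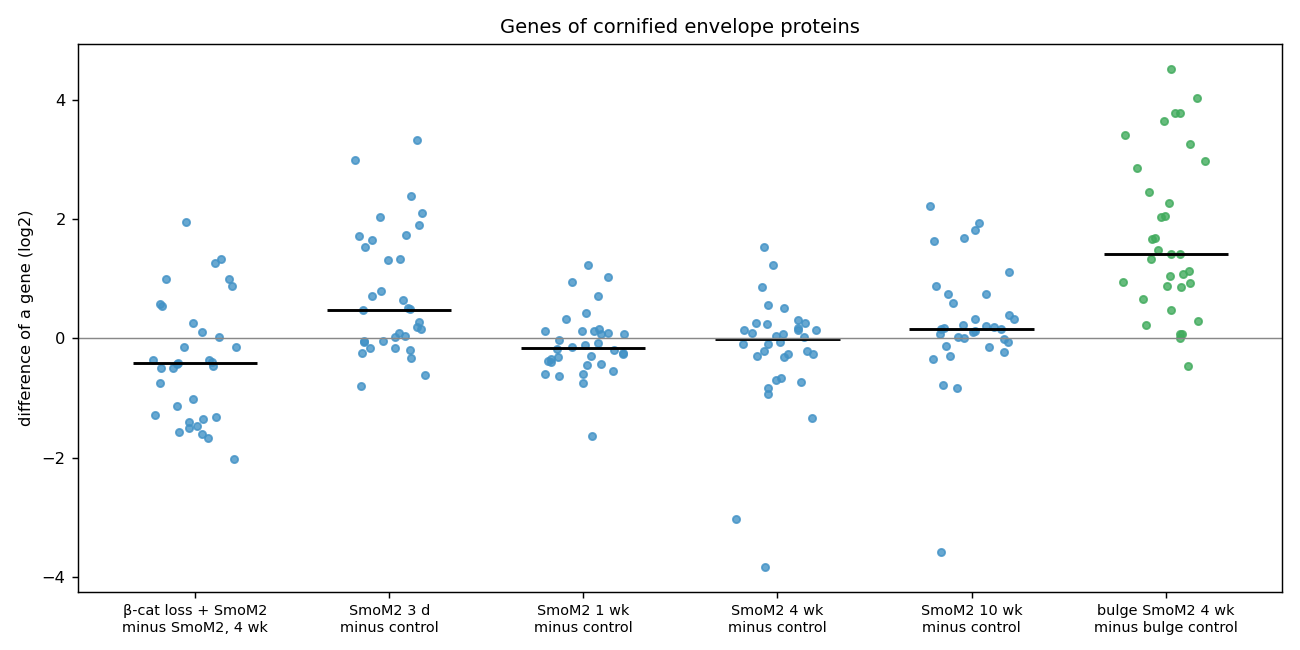
Differences in log2 signal (y axis) of 34 genes of cornified envelope proteins in 6 comparisons (x axis), with points for genes, spread sideways for legibility, and bars for medians, in blue for IFE and in green for the bulge. The medians lie between −0.42 and 0.48 in the IFE comparisons and at 1.41 in the bulge pair, and the lowest point at 4 weeks is Krt2 at −3.83.

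Genes that process the enzymes or make the lipid envelope formed another list. Of 21 listed, 19 passed the filter and 0 of 19 passed the test in any of the IFE comparisons. With β-catenin loss the median was −0.07, and Ctsh, which encodes cathepsin H, had 10.42 against 8.68 with SmoM2 alone (1.74 ± 0.46, adjusted p = 0.0716). At 4 weeks the median was −0.13, and Elovl4, an enzyme of very long fatty acids, had 7.75 against 9.11 in controls (−1.36 ± 0.61, adjusted p = 0.315). In the bulge 5 of 19 were at least 2-fold higher (4.35% of all genes), among them Cst6, which encodes cystatin M/E, an inhibitor of the cathepsins and legumain of the envelope pathway, with 12.61 in SmoM2 cells and 8.62 in control cells.

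Partners of Tgm2 at the cell surface and genes of retinoid signalling, which regulates Tgm2 in many cells, formed a further list of 23 symbols, with 1 gene under its old and its current symbol, of which 20 passed the filter. With β-catenin loss against SmoM2 alone, 1 of 20 passed (2.23% of all genes). Fn1, which encodes fibronectin, a substrate and binding partner of Tgm2 in the matrix, averaged 5.42 with β-catenin loss and 7.63 with SmoM2 alone, a difference of −2.21 ± 0.39 (limma, adjusted p = 0.0235). The adjusted p was 0.205 without replicate 1 and 0.0583 without replicate 2 of β-catenin loss, and 0.0664 with only the arrays of these groups. Fn1 is also made by fibroblasts, whose markers were lower in the same group, as given above, with 0 of 9 past the test. The part of these markers in the Fn1 difference was not tested. The list's median was −0.29 (all genes −0.09).

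At 4 weeks against control 0 of 20 passed and the median was 0.12. The lowest adjusted p-values were those of Ltbp1, a latent TGF-β binding protein (8.97 against 6.91, 2.06 ± 0.63, adjusted p = 0.114), and Fn1 (7.63 against 6.55, 1.08 ± 0.35, adjusted p = 0.13). At 10 weeks 0 of 20 passed and the median was −0.01. In the bulge, 2 of 20 were at least 2-fold higher and 1 lower (4.35% and 2.59% of all genes). Fn1 had 8.83 in bulge SmoM2 cells and 12.27 in bulge control cells, the sign of Tgm2 there, and Crabp2, a retinoic acid binding protein, had 8.95 and 7.28.

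The genes most like each member over the 14 IFE arrays were ranked by Pearson's r, as a description in which shared group differences contribute. For Tgm5 they were Cyyr1 (0.99), Pi15 (0.98) and Snx18 (0.97), and for Tgm3 Sdr16c5 (0.94), Cops7a (0.94) and P3h2 (0.93). For Tgm2 they were Ephx2 (0.92), a soluble epoxide hydrolase, Ntrk2 (0.92), a neurotrophin receptor, and Esr1 (0.92), the oestrogen receptor. For Tgm1 they were Nkpd1 (0.93), Wfdc5 (0.93) and Pnpla1 (0.92), the last an enzyme of epidermal acylceramide synthesis. Between the members, r was −0.85 for Tgm2 and Tgm5, −0.72 for Tgm3 and Tgm5, 0.67 for Tgm2 and Tgm3, and between −0.18 and 0.41 for Tgm1 with the others.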

How the data were processed

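Per the labels' protocols, sorted tail skin cells gave RNA that was labelled by 3′ in vitro transcription and read on Affymetrix mouse arrays. The authors deposited 1 table of log2 signals for 45101 probe sets in 16 arrays, with array medians of 5.38 to 5.53. R 2.14.0 is named in the submitters' processing notes. How background correction, normalization and summary were done is not given in the sources used here. Precision is limited by the number of arrays.

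Of the probe sets, 34958 had 1 gene in the array annotation, 932 several and 9211 none, and 34754 matched the RefSeq gene table by identifier. The probe set of highest mean stood for each of 18194 genes, with no further normalization, and a gene was tested if above the 40th percentile (4.88 to 5.01) in at least 2 arrays, which left 14286. Group means over the 14 IFE arrays were fitted with limma 3.58.1 in R 4.3.3 (total degrees of freedom 11.6), with Benjamini-Hochberg adjustment over all genes tested and a threshold of 0.05. The lone 3-day array was assumed to vary like the others. The code was tested on simulated data.

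The members and lists were chosen with earlier results of these data known. Named genes were the members, their family, and per list and comparison up to 4 genes that passed, by size of change, or, where none did, the 2 with the smallest adjusted p, of which the text gives a part. For likeness they were the 3 of highest r. Krt84, Krt36 and involucrin were named after their values were seen. Same-numbered control, 1-week and 4-week arrays deviated together (r = 0.34 to 0.70 over genes). Their differences within numbers are given, and the number was tried as a block. The main fit had no block, so its p-values do not use this pairing. Alternatives were the mean of probe sets, each other probe set, no filter, quantile normalization, array weights, only the groups compared, 2 numberings as a block, Y-linked signal as a covariate, and leaving out each replicate.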

Additional observations from a re-analysis of the deposited data

Results flagged for a closer look

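Tgm3, which encodes a soluble epidermal transglutaminase, stood 2.31 higher (log2) in bulge SmoM2 cells than in bulge control cells, with 8.89 against 6.58. In IFE its difference at 4 weeks from controls was −3.37, and all 3 SmoM2 arrays lay below all 3 control arrays. It was singled out because the arrays of the 2 compartments moved in opposite directions. The difference between the compartments was not tested, and the bulge had 1 array a group. The IFE difference is among those that chose the members. The source label of the bulge control array names SmoM2-positive cells, and Gli1 was 9.89 there against 9.96 in bulge SmoM2 cells. Marker lists also moved in this pair of arrays, as given above, and their part in the Tgm3 difference was not tested.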

How the results depend on the processing

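Of the 4 members in the 2 tested comparisons, none passed the threshold in the main fit, and 3 settings brought one past it. Both comparisons use 4-week SmoM2 or control arrays that chose the members. Their p-values are therefore not independent of that choice under any setting, and nothing further is read from those below the threshold. For Tgm5 under β-catenin loss against SmoM2 alone (−3.03, adjusted p = 0.0637), the adjusted p was 0.0493 with only the arrays compared (−3.03), 0.0187 with the replicate block (−3.46) and 0.0246 with the replicate block by the experiment number of the descriptions (−3.37), and over all alternatives it ran between 0.0187 and 0.416. The last block also brought Tgm3 there to 1.63 (adjusted p = 0.0484). The β-catenin loss arrays share only a number with the others (r of deviations −0.18 to 0.06), so these blocks are not pairings, and the numbers of the 10-week arrays differ between title and description. The block brought no other member past the threshold. Signs turned for Tgm2 with probe sets 1426004_a_at (−0.12) and 1438942_x_at (−0.16) under β-catenin loss against SmoM2 alone, with 1438942_x_at at 10 weeks against 4 weeks (0.18) and control (0.004), and with both in the bulge (0.23 and 0.13). For Tgm1, array weights gave 0.0647 for 4 weeks against 1 week and −1e-04 for 10 against 4 weeks. With single replicates left out, Tgm1 ran from −1.07 to 0.30 under β-catenin loss against SmoM2 alone, from −0.99 to 0.38 for 4 weeks against 1 week and from −0.26 to 1.11 for 10 against 4 weeks. Among the differences from control, Tgm2 moved to −0.0421 at 3 days with 1438942_x_at, to −1.03 (mean of probe sets), −0.0743 (1426004_a_at) and −0.0749 (1438942_x_at) at 1 week, to −1.54 (mean), −1.62 (1417500_a_at), −0.52 (1426004_a_at) and −0.17 (1438942_x_at) at 4 weeks, and to −1.87 (mean), −1.78 (1417500_a_at) and −0.54 (1426004_a_at) at 10 weeks. In the bulge, Tgm2 moved to −1.47 (mean) and −1.76 (1417500_a_at) and Tgm3 to 1.45 (1421355_at), which in IFE at 4 weeks gave −2.42. Tgm5 at 1 week ran from 1.90 to 3.60 without single replicates.

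The count of genes past the threshold moved more. Under β-catenin loss against SmoM2 alone (318) it was 209 with quantile normalization, 102 with array weights, 17 with only the arrays compared, 1347 with the replicate block, 1181 with the experiment number block, 144 with the Y-linked covariate and 2 to 247 without single replicates. Under β-catenin loss against control (53) it was 91 with the mean of probe sets, 96 with array weights, 169 and 143 with the blocks, 11 with the Y-linked covariate and 1 to 54 without single replicates. For 4 weeks against 1 week (0) it was 0 to 24 without single replicates. For 10 against 4 weeks (0) it was 1 with quantile normalization, 14 with array weights, 2 with the replicate block and 0 to 13 without single replicates. Against control it was 1 at 3 days (0) with array weights, 2 and 5 at 1 week (0) with the blocks and 0 to 50 without single replicates, and 873 and 856 at 4 weeks (463) with the blocks and 13 to 410 without single replicates. At 10 weeks (100) it was 59 with no filter, 1545 with array weights, 738 with only the arrays compared, 163 and 207 with the blocks, 158 with the Y-linked covariate and 0 to 45 without single replicates. The causes were not tested.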
